A study of Canis lupus familiaris with 29 samples.

Results

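ACKR3, GPR18 and SCTR are seven-pass membrane receptors, and their messenger RNA was followed over every condition of a study of kidney epithelial cells. The members were chosen by name, as the probe sets that the array's annotation pairs with the single gene symbol ACKR3, GPR18 or SCTR. Each of the 3 genes had 1 probe set, so the account rests on 3 of the 15115 genes with a single symbol, and on 3 of the 42924 probe sets of the array that are not controls. Their Entrez identifiers are 403964 for ACKR3, 485531 for GPR18 and 483883 for SCTR, and the ACKR3 probe set is of a kind that can match several transcripts. All 3 reached log2 5 in at least 3 arrays and were among the 16571 probe sets that passed this filter. The genes were picked because their levels differed between groups in these same arrays. Their levels and differences are therefore given as a description, with standard errors and no test.

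The cells were MDCK type II, an established line of dog kidney epithelial cells, studied with 29 Affymetrix canine arrays. They grew flat on permeable transwell supports (2D) or inside collagen (3D). In each culture format the 4 control arrays came from untreated cells, and 4 arrays came from cells treated with HGF, hepatocyte growth factor, which activates the tyrosine kinase receptor MET. Further cells received HGF together with PD-98059 (4 arrays in 2D, 3 in 3D) or HGF together with U0126 (3 arrays in each format). PD-98059 and U0126 block MEK, the kinase upstream of ERK. The sources used here state neither doses nor times, nor whether arrays came from separate cultures, and an inhibitor without HGF is not among the groups. All groups are the same line, and the spread between arrays may be partly technical.

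The 3 receptors belong to different branches of the seven-pass family. ACKR3, also called CXCR7 and earlier RDC1, is an atypical chemokine receptor that binds CXCL12 and CXCL11. It recruits arrestins and carries its ligands into the cell rather than signalling through G proteins in the usual way, and adrenomedullin is a further reported ligand. GPR18 is a rhodopsin-class receptor best known from lymphoid tissue, for which N-arachidonyl glycine and a resolvin have been proposed as ligands, an assignment that is still debated. SCTR is the receptor of the gut hormone secretin. It couples through the stimulatory G protein Gs to adenylyl cyclase and raises cyclic AMP, and it is known from pancreatic ducts, bile ducts and the kidney collecting duct, where cyclic AMP controls water and bicarbonate transport.

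Levels are the authors' deposited log2 array values, on which 1 unit is a 2-fold change. A mean below log2 5 is called dim here, and a fold that starts or ends at a dim level rests partly on background signal. Levels of different genes are not compared, since each probe set has its own response. The epithelial label was borne out by 7 of 10 measured epithelial markers, among them EPCAM, KRT8, KRT18 and CDH16, while the probe sets of CDH1, PAX8 and PAX2 stayed at or under 3.84, 3.58 and 2.78 in all arrays. None of the 8 endothelial and 8 fibroblast markers reached log2 5. Of 11 leukocyte markers 2 did, MS4A1 at up to 5.15 and CD68, whose mean was 5.77 with HGF in 2D and at most 3.07 in every other group, while the pan-leukocyte PTPRC stayed at or under 2.94. The mean level over the leukocyte list lay between 2.90 and 3.09 in the 2D HGF arrays and between 2.70 and 2.90 in the arrays of the other groups. In a bulk sample, fewer cells of a kind and less RNA per cell cannot be told apart.

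**Figure D1:**
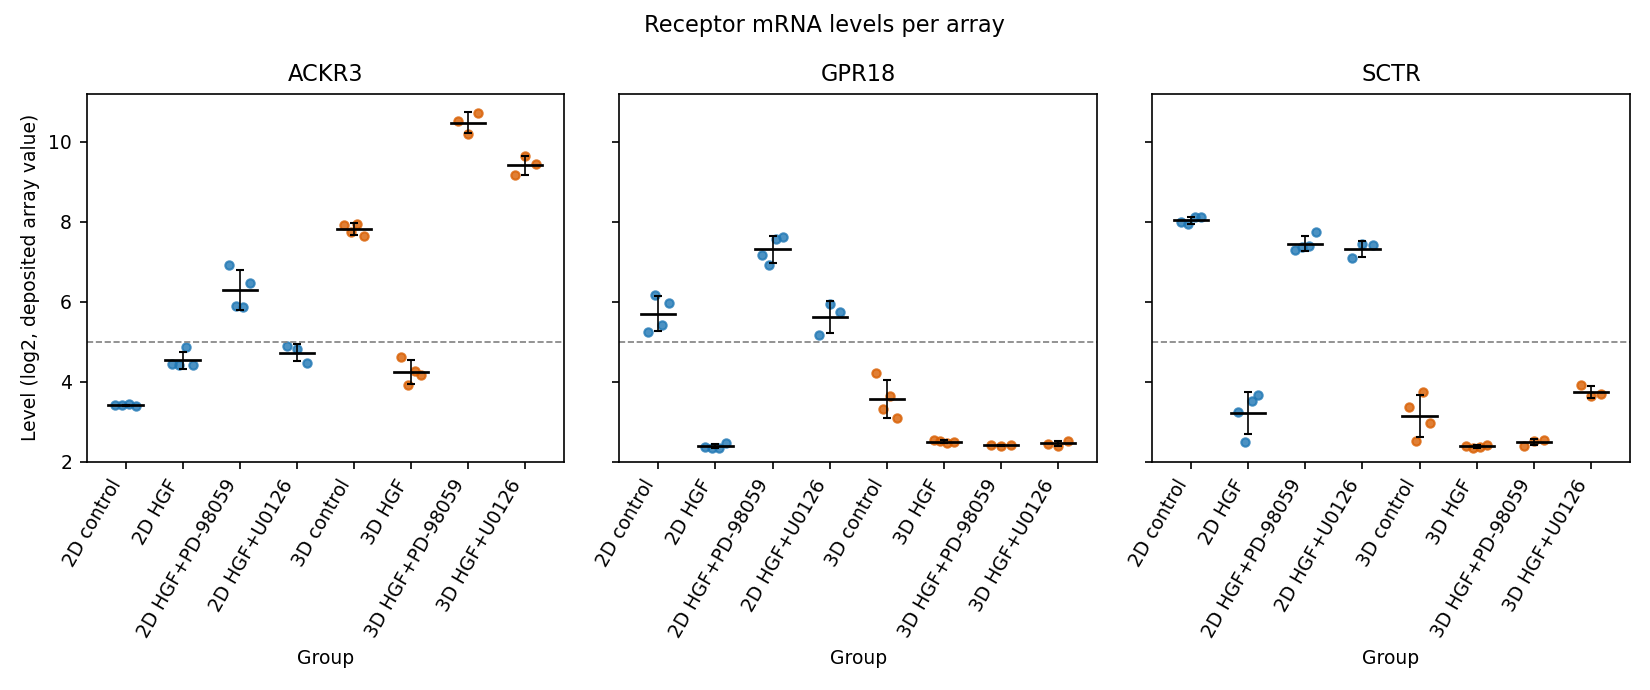
Level of each receptor in each of the 29 arrays (points, deposited log2 values), with 2D groups in blue and 3D groups in orange. The long bar is the group mean, the error bar is the SD (n = 3 or 4), and the dashed line marks log2 5. ACKR3 is highest in 3D cells given HGF with an inhibitor, whereas GPR18 and SCTR are above log2 5 only in 2D control cells and in 2D cells given HGF with an inhibitor.

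ACKR3 was high in collagen, low under HGF in collagen, and highest when a MEK inhibitor accompanied HGF. Its 4 untreated 3D arrays read 7.92, 7.74, 7.94 and 7.65, and its 4 HGF arrays in 3D read 4.61, 3.91, 4.26 and 4.17. These groups did not overlap, and the mean was lower with HGF by 3.57 ± 0.19 on the log2 scale (standard error from limma), a factor of 11.9 that ends at a dim level. Without 3D HGF replicates 1 and 4, from a group whose arrays differed from each other more than those of any other group, the difference was -3.73.

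With PD-98059 the 3 ACKR3 values in 3D were 10.51, 10.19 and 10.71. This is 6.23 ± 0.20 above HGF alone, a 75.2-fold difference that ranked 4 among the 16571 probe sets in order of increase. With U0126 the values were 9.15, 9.64 and 9.43, which is 5.17 ± 0.20 above HGF alone and ranked 13. Both inhibitor groups also lay above untreated 3D cells without overlap, by 2.66 ± 0.20 with PD-98059 and by 1.60 ± 0.20 with U0126, so the ACKR3 level with HGF and an inhibitor was not merely back at that of untreated cells. No array of 3D cells given an inhibitor without HGF was analysed here.

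In flat cells ACKR3 was dim without treatment, with 3.41, 3.41, 3.43 and 3.39 in the 4 arrays. With HGF the arrays read 4.45, 4.41, 4.85 and 4.41, which is dim as well and 1.12 ± 0.19 higher. The direction was thus opposite to that in collagen, and the HGF difference in 3D minus that in 2D was -4.70 ± 0.27. PD-98059 brought the 2D level to 6.92, 5.90, 5.86 and 6.47, above HGF alone by 1.76 ± 0.19. U0126 gave 4.89, 4.81 and 4.47, a range that overlapped that of HGF alone (difference 0.19 ± 0.20). Untreated cells in collagen exceeded untreated flat cells by 4.40 ± 0.19, while under HGF the formats overlapped (-0.29 ± 0.19). In order of ACKR3 level the groups ran from 3D HGF with PD-98059 through 3D HGF with U0126, 3D control, 2D HGF with PD-98059, 2D HGF with U0126, 2D HGF and 3D HGF to 2D control. The neighbours 2D HGF with U0126, 2D HGF and 3D HGF did not differ beyond their spread, and each other step in this order separated groups whose arrays did not overlap.

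GPR18 was measurable above the dim range in flat cells only, and with HGF it was dim there as well. Its 2D control arrays read 5.23, 6.16, 5.42 and 5.96, and its 2D HGF arrays read 2.37, 2.35, 2.35 and 2.47. The mean was lower with HGF by 3.31 ± 0.21, a factor of 9.90 that ends at background-like values. PD-98059 gave 7.15, 6.91, 7.55 and 7.61, above HGF alone by 4.92 ± 0.21 (30.3-fold, ranked 13 of 16571 in order of increase) and above untreated cells by 1.61 ± 0.21 without overlap. U0126 gave 5.15, 5.94 and 5.75, above HGF alone by 3.23 ± 0.23 and overlapping untreated cells (-0.08 ± 0.23).

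In collagen every GPR18 value was dim. The untreated arrays read 4.21, 3.33, 3.63 and 3.09, lower than in flat cells by 2.13 ± 0.21 without overlap. The 10 arrays of the other 3D groups lay between 2.39 and 2.53. The decrease with HGF in 3D, 1.06 ± 0.21, is therefore a difference between dim levels, as are the differences of the inhibitor groups from HGF alone, -0.09 ± 0.23 with PD-98059 and -0.05 ± 0.23 with U0126. In order of GPR18 level the 2D HGF with PD-98059 group came first, 2D control and 2D HGF with U0126 followed and overlapped each other, and 3D control came next. The arrays of the remaining 4 groups overlapped from each neighbour to the next.

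SCTR was high in untreated flat cells and dim in untreated cells in collagen. Its 2D control arrays lay within 7.95 to 8.11, whereas its 3D control arrays read 3.36, 2.51, 3.73 and 2.96, all dim, and the decrease from 2D to 3D ranked 4 of 16571. HGF in 2D gave 3.23, 2.48, 3.51 and 3.66, as dim as untreated cells in collagen. PD-98059 brought SCTR in 2D to 7.30, 7.36, 7.40 and 7.74, and U0126 brought it to 7.08, 7.43 and 7.42. These lay above HGF alone by 4.23 ± 0.21 and 4.09 ± 0.23, and below untreated cells by 0.59 ± 0.21 and 0.72 ± 0.23, in neither case with overlap.

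In collagen SCTR stayed dim in every group. With HGF the 4 arrays read 2.40, 2.34, 2.35 and 2.42, and with PD-98059 the values were 2.40, 2.51 and 2.54. U0126 gave 3.92, 3.65 and 3.68, above HGF alone by 1.37 ± 0.23 without overlap. This is a difference between dim levels, and the U0126 arrays overlapped those of untreated 3D cells. The HGF difference in 3D minus that in 2D was 4.05 ± 0.30 for SCTR and 2.24 ± 0.30 for GPR18, and for both genes the 3D control level was dim and left little room for a decrease. In order of SCTR level 2D control came first, apart from the overlapping pair of 2D inhibitor groups. All other groups were dim, and each of them overlapped its neighbour in the order.

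**Figure D2:**
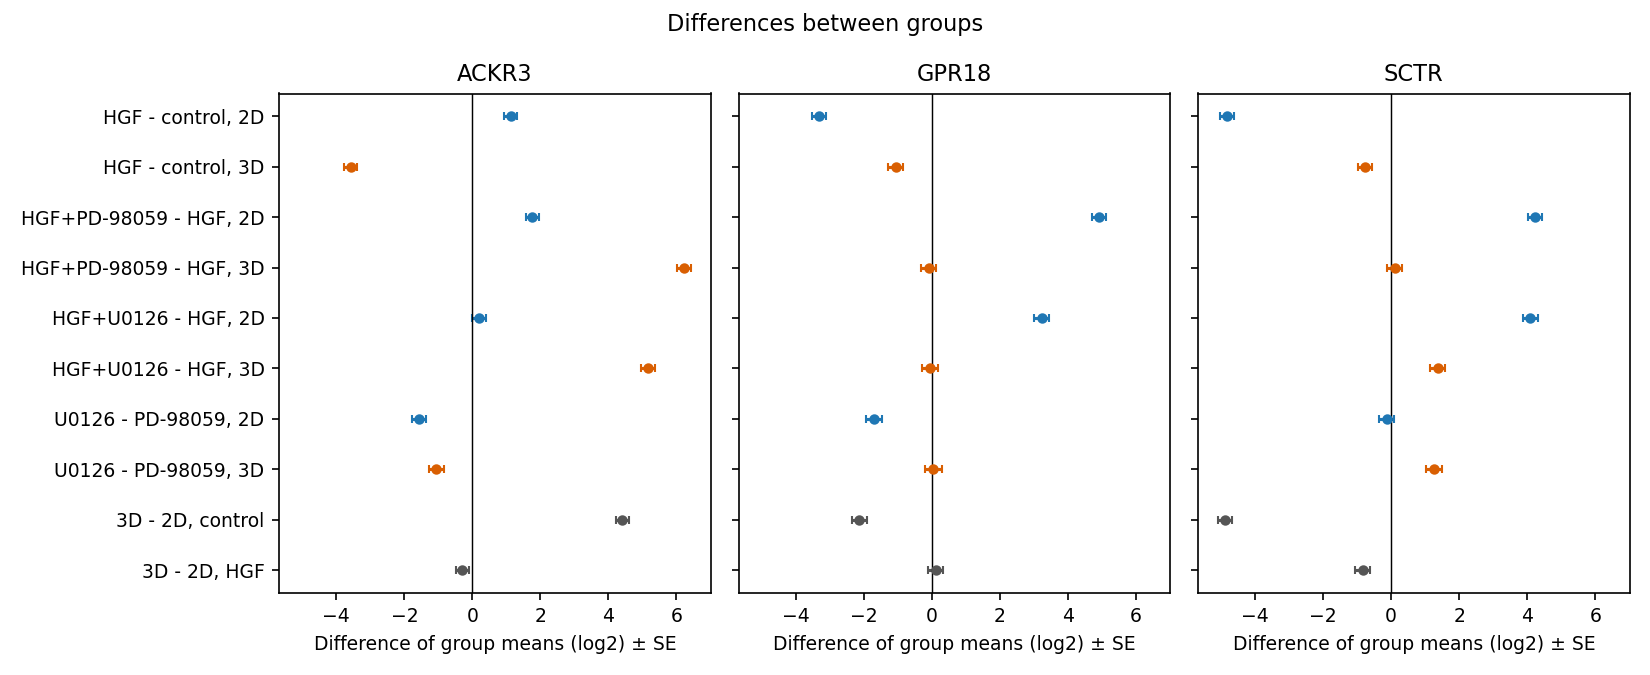
Differences of group means for each receptor on the log2 scale, with the standard error from limma as error bar. Blue marks differences within 2D, orange within 3D and grey between formats. Within 2D the inhibitor differences of GPR18 and SCTR lie between 3.23 and 4.92, and in 3D those of ACKR3 are 6.23 and 5.17.

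Counts of members whose groups did not overlap are set against the same count over all 16571 tested probe sets, and nothing is read from them, since the genes were chosen on these differences. With HGF in 3D 3 of 3 were lower without overlap, as were 28.3% of all tested probe sets, and 0 were higher (23.5%). With HGF in 2D 1 was higher (25.6% of all) and 2 were lower (28.6%). Of untreated cells in 3D against 2D, 1 was higher (25%) and 2 were lower (29.3%), and under HGF 0 were higher (23.7%) and 1 was lower (29.8%). With PD-98059 3 of 3 were higher (26.5%) and 0 lower (23%) in 2D, and in 3D 1 was higher (23.9%) and 1 lower (12.7%). The latter was GPR18, with a difference between dim levels of -0.09 ± 0.23. With U0126 2 were higher in each format (29.4% in 2D and 23% in 3D) and 0 lower (27.2% and 19.6%).

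Against untreated cells, HGF with PD-98059 left 1 member higher (26.9% of all) and 1 lower (21.9%) in 3D, and 2 higher (13.1%) and 1 lower (13.3%) in 2D. HGF with U0126 left 1 higher (19.6%) and 1 lower (25.3%) in 3D, and 1 higher (15.1%) and 1 lower (15.1%) in 2D. These 4 comparisons with untreated cells were added after the levels had been seen.

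The MEK inhibitors gave different levels for some members. Their doses are not stated, so the values stand side by side and no comparison of the compounds is drawn from them. ACKR3 was lower with U0126 than with PD-98059 by 1.06 ± 0.22 in 3D and by 1.56 ± 0.20 in 2D, and GPR18 was lower by 1.69 ± 0.23 in 2D, in each case without overlap. In 2D 2 of 3 members were thus lower without overlap, against 5.75% of all tested probe sets, and 0 were higher (4.94%). In 3D 1 was lower (22.4%) and 1 higher (9.05%), the latter being SCTR by 1.26 ± 0.24 between dim levels. SCTR in 2D overlapped between the compounds (-0.13 ± 0.23).

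The arrays differed in an RNA-quality index, which sets the signal of the 3′ control probe sets for ACTB, GAPDH and EEF1A1 against that of their 5′ or middle ones. It is the 3′ signal minus the other on the log2 scale, so a lower index is usually read as more intact RNA. In 2D the index was 1.44 ± 0.10 (SD, n = 4) in control cells and 0.838 ± 0.048 (SD, n = 4) with HGF. With PD-98059 it was 1.36 ± 0.061 (SD, n = 4) and with U0126 1.31 ± 0.13 (SD, n = 3), so that it was lowest in the group in which GPR18 and SCTR were lowest in 2D. In 3D it was 1.93 ± 0.24 (SD, n = 4) in control cells, 1.68 ± 0.58 (SD, n = 4) with HGF, 1.65 ± 0.025 (SD, n = 3) with PD-98059 and 1.61 ± 0.14 (SD, n = 3) with U0126. The part of the index in these results was not tested. The lowest correlation between any pair of arrays was 0.964 in 3D HGF and 0.987 or more in each other group.

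GPR18 and SCTR had similar profiles over the 8 groups, and ACKR3 had another. Likeness was measured as the root mean square difference of the 8 group means after each gene was centred on its own mean, so that a small value means a similar shape. It was 0.91 between GPR18 and SCTR, 3.56 between ACKR3 and GPR18 and 4.04 between ACKR3 and SCTR. Around its own mean, the root mean square was 2.44 for ACKR3, 1.82 for GPR18 and 2.27 for SCTR.

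Among 6861 other genes, GPR18 was closest to C9H17orf97 (0.42), TEX26 (0.54) and RSPH14 (0.56), a protein of ciliary radial spokes by its name. SCTR was closest to TEX26 (0.47), AK8 (0.49), an adenylate kinase, and GABRA3 (0.51), a subunit of the GABA-A receptor. TEX26 had group means of 7.33, 7.65 and 7.18 in the 2D control, PD-98059 and U0126 groups and 3.03 with HGF in 2D, and its 4 means in collagen lay between 2.78 and 3.66. Each of these 5 genes had its lower levels in the same groups as GPR18 and SCTR, namely 2D HGF and all groups in collagen. This follows from picking them by likeness of profile.

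No gene came as close to ACKR3. The nearest were UGT1A6 (1.104), a glucuronosyltransferase, ACTA1 (1.24), skeletal muscle actin, and SAA1 (1.35), an acute phase protein, all from families with near-identical copies that an array may not tell apart. UGT1A6 had its highest group means with HGF and an inhibitor in 3D, 7.73 with PD-98059 and 7.98 with U0126, against 4.64 in untreated and 3.02 in HGF-treated 3D cells. In this it resembled ACKR3, whereas ACTA1 and SAA1 had means in the 3D inhibitor groups (5.38 to 6.68) no higher than in untreated 3D cells (6.09 and 7.03).

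**Figure D3:**
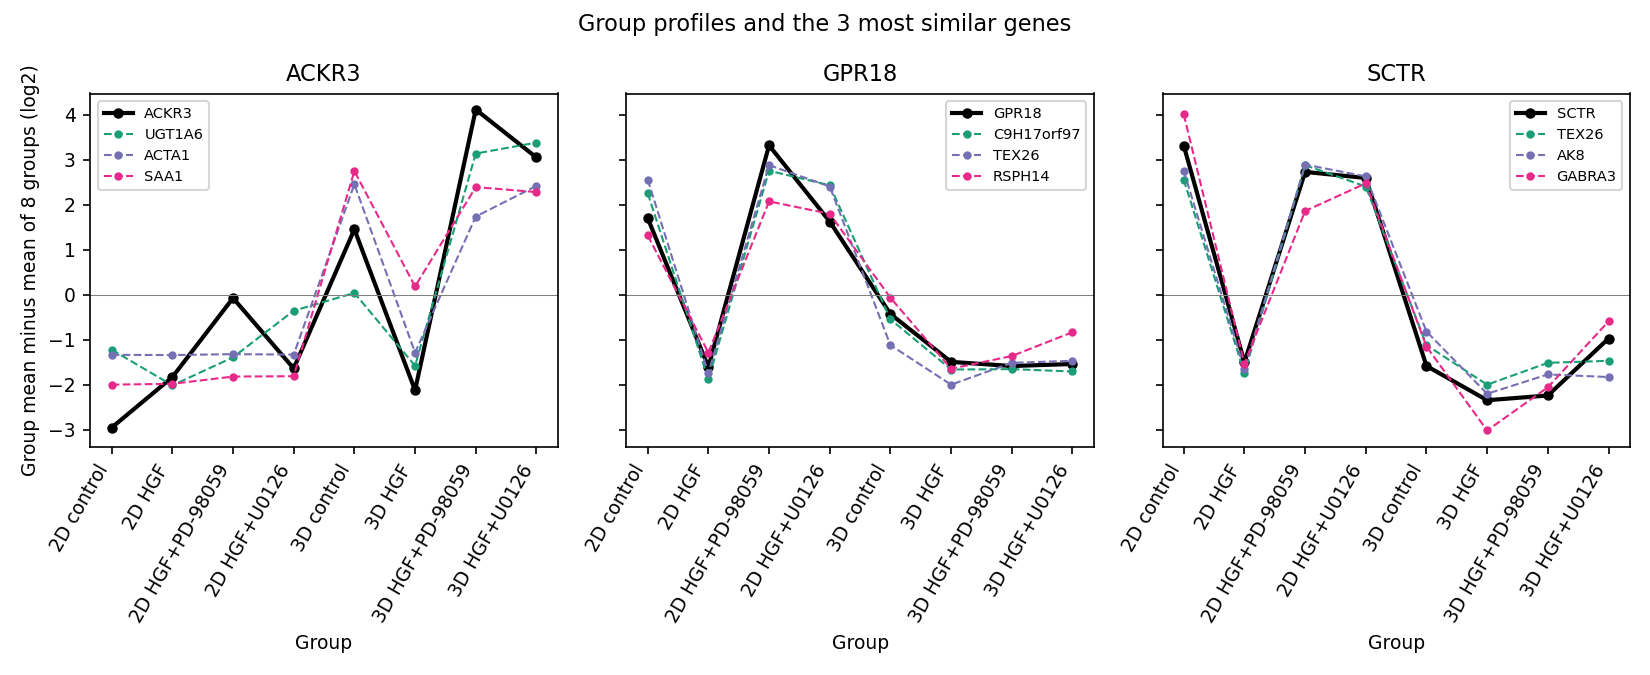
Group means of each receptor (black) and of the 3 genes with the most similar profile (dashed), each centred on the mean of its 8 groups, on the log2 scale. The lines only join the groups for the eye. GPR18 and SCTR run close to their neighbours (root mean square differences of 0.42 to 0.56), ACKR3 less so (1.104 to 1.35).

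The ligands and partners of ACKR3 were mostly not measurable. Of 22 genes listed as its ligands, related receptors, arrestins and receptor kinases, 16 had a probe set with a single gene symbol and 3 passed the filter. CXCL12 stayed at or under 2.69, and the arrestins ARRB1 and ARRB2 at or under 2.02 and 2.65, in all 29 arrays. Adrenomedullin, ADM, was among the 3 that passed. Its level in 2D was 13.77 ± 0.14 (SD, n = 4) in control cells and 15.53 ± 0.05 (SD, n = 4) with HGF, and in 3D it was 10.83 ± 0.025 (SD, n = 4) in control cells and 8.87 ± 0.11 (SD, n = 4) with HGF.

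ADM rose with HGF in 2D by 1.76 ± 0.15 (limma adjusted p = 1.83e-10) and fell with HGF in 3D by 1.97 ± 0.15 (adjusted p = 1.85e-11). ACKR3 differed by 1.12 and -3.57 in the same comparisons. In 3D ADM rose with PD-98059 (1.60 ± 0.16, limma adjusted p = 9.53e-09) and with U0126 (2.29 ± 0.16, adjusted p = 8.68e-12), where ACKR3 was higher too. In 2D ADM fell with PD-98059 (-1.60 ± 0.15, limma adjusted p = 1.19e-09) and with U0126 (-1.59 ± 0.16, adjusted p = 6.29e-09), where ACKR3 was higher or overlapped. The receptor kinase GRK2, which phosphorylates activated receptors, rose with HGF in 2D by 1.69 ± 0.29 (limma adjusted p = 2.11e-05) and changed by 0.43 ± 0.29 in 3D (adjusted p = 0.214). In the ligand and partner list 0 of 3 tested genes rose and 1 fell in 3D (0 and 1 at an unadjusted limma p under 0.05), and 2 rose and 0 fell in 2D (2 and 0 unadjusted). Of the whole tested table, 29.4% passed as higher and 32.6% as lower with HGF in 3D, and 26.3% and 29.2% did so in 2D. With PD-98059 these shares were 26.6% and 15.4% in 3D and 27.6% and 24.9% in 2D. In 3D 63.3% of the calls with PD-98059 were thus rises, and 52.3% were after quantile normalization. With U0126 the shares were 25.4% and 23.8% in 3D and 25.8% and 24.3% in 2D. Between untreated cells of the 2 formats they were 23.6% and 28.7%, and for the HGF effect in 3D minus that in 2D 22% and 26.3%.

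Of the secretin receptor's own family, 16 of 17 listed hormones and receptors (among them VIPR1, GLP1R, CALCR and PTH1R) had a probe set with a single symbol, and 0 passed the filter, so none was tested. The cyclic AMP pathway downstream of Gs receptors could be followed in 14 of 46 listed genes. With HGF in 2D 1 rose and 7 fell (26.3% and 29.2% of all tested probe sets), with a median of -0.34 against -0.03 over all tested probe sets. In 3D 0 rose and 5 fell (29.4% and 32.6% of all), with a median of -0.12 against 0.00 over all. The counts were 0 and 5 at an unadjusted limma p under 0.05 as well. In 3D 1 gene of the list rose without 3D HGF replicate 4, and 2 rose after quantile normalization.

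PRKAR2B, a regulatory subunit of protein kinase A, was among those that fell in both formats. Its level fell by 2.42 ± 0.24 in 2D (limma adjusted p = 3.72e-09) and by 2.11 ± 0.24 in 3D (adjusted p = 3.28e-08), and it ended dim in each. PDE1A, a phosphodiesterase that degrades cyclic nucleotides, fell by 2.65 ± 0.19 in 2D (adjusted p = 4.70e-12) and by 1.40 ± 0.19 in 3D (adjusted p = 4.01e-07, limma). PKIG, an inhibitor of protein kinase A, fell by 1.89 ± 0.23 in 2D (limma adjusted p = 9.34e-08) and by 1.58 ± 0.23 in 3D (adjusted p = 1.31e-06). PKIG ended dim in 2D (3.84) and in 3D (3.42), and its mean in untreated 3D cells, 4.99, was dim as well. With the inhibitors PRKAR2B, PDE1A and PKIG rose in both formats. In 3D the rises of PKIG were between dim levels, 0.75 ± 0.25 with PD-98059 and 1.37 ± 0.25 with U0126 (limma adjusted p = 0.0158 and 4.49e-05). PRKAR2B was higher by 4.002 ± 0.24 with PD-98059 and 3.59 ± 0.26 with U0126 in 2D (limma adjusted p = 2.45e-13 and 1.20e-11), and by 2.95 ± 0.26 and 3.48 ± 0.26 in 3D (adjusted p = 9.49e-10 and 2.82e-11). SCTR was dim in untreated 3D cells, whereas PRKAR2B read 6.37 in untreated 2D and 6.20 in untreated 3D cells and PDE1A read 8.94 and 8.93.

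The genes listed around GPR18, its proposed lipid pathway, its neighbours and the inhibitory G protein subunits, gave 6 tested members of 18. With HGF in 2D 2 rose and 2 fell, against 26.3% and 29.2% of all tested probe sets (1 fell without 2D control replicate 1 or without 2D HGF replicate 3). In 3D 1 rose and 2 fell (29.4% and 32.6% of all), and these calls were not stable. No gene of the list rose without 3D control replicate 1 or 3D HGF replicate 3 (0). The number that fell was 0 without 3D control replicate 1 or 3 and 1 without 3D HGF replicate 2, 3 or 4. GNAI2, a subunit of the inhibitory G protein, rose with HGF in 2D by 0.61 ± 0.13 (limma adjusted p = 0.000294), and GDE1, a phosphodiesterase of the pathway that makes N-acyl lipids, fell by 0.76 ± 0.08 (adjusted p = 6.15e-09).

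The genes next to the receptors on the chromosome were read as well. In the RefSeq annotation of assembly UU_Cfam_GSD_1.0, used here for gene order only, GPR18 lies within the bounds of UBAC2, and its other neighbour, GPR183, was not analysed here. Whether the GPR18 probe set also detects UBAC2 transcripts was not tested. UBAC2 changed by -0.09 ± 0.13 with HGF in 2D (limma adjusted p = 0.574) and by -0.01 ± 0.13 in 3D (adjusted p = 0.938), where GPR18 was lower by 3.31 and 1.06. UBAC2 was lower in untreated 3D than 2D cells by 1.40 ± 0.13 (limma adjusted p = 1.53e-09), from 9.04 to 7.64. SCTR lies between CFAP221 and TMEM37. CFAP221 changed by 0.07 ± 0.12 with HGF in 2D (limma adjusted p = 0.637), where SCTR was lower by 4.81. TMEM37 fell with HGF by 3.76 ± 0.16 in 3D (limma adjusted p = 1.12e-16) and by 0.94 ± 0.16 in 2D (adjusted p = 1.22e-05). ACKR3 lies next to COPS8, whose 8 group means lay between 9.81 and 10.68.

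Among other seven-pass receptors, 165 of 198 listed genes had a probe set with a single symbol and 19 passed the filter. With HGF in 2D 7 rose and 8 fell (26.3% and 29.2% of all tested probe sets). In 3D 3 rose and 5 fell (29.4% and 32.6% of all). The number that rose was 5 without 3D HGF replicate 4, 7 after quantile normalization, and 27 (with 5 that fell) when no filter on low values was set. Without that filter 20.3% of all probe sets rose and 12.7% fell. The array medians were 3.12 to 3.26 in 3D HGF and 3.06 to 3.14 in 3D control cells. The part of this shift in the counts was not tested. GPRC5A, an orphan receptor of epithelia, rose by 3.85 ± 0.23 in 2D (limma adjusted p = 2.11e-13) and by 1.17 ± 0.23 in 3D (adjusted p = 9.85e-05). The lysophosphatidic acid receptor LPAR2 had a mean of 6.42 with HGF in 2D and was dim in each other group, with means of 2.11 to 2.38. It passed the filter only through its 2D HGF arrays, so it had to differ, and its levels are given without a test; it is 1 of the 7 counted as risen in 2D. The adhesion receptor ADGRF1 fell by 3.18 ± 0.08 in 3D (limma adjusted p = 6.23e-21) and by 0.98 ± 0.08 in 2D (adjusted p = 8.73e-11). GPRC5B fell in both formats, by 2.37 ± 0.15 in 3D (limma adjusted p = 4.62e-13) and by 1.35 ± 0.15 in 2D (adjusted p = 2.28e-08). ADGRE5 rose in both, by 1.82 ± 0.17 in 3D (limma adjusted p = 1.04e-09) and by 1.94 ± 0.17 in 2D (adjusted p = 3.92e-10).

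Of the RGS family, which speeds the switching off of G proteins, 4 of 21 listed genes were tested. With HGF 2 rose and 2 fell in 2D (26.3% and 29.2% of all tested probe sets), and 2 rose and 1 fell in 3D (29.4% and 32.6%). RGS17 rose by 3.01 ± 0.17 in 2D (limma adjusted p = 5.73e-14) and 2.96 ± 0.17 in 3D (adjusted p = 7.04e-14). RGS22 fell by 4.07 ± 0.23 in 2D (limma adjusted p = 5.01e-14) and by 2.86 ± 0.23 in 3D (adjusted p = 4.06e-11). It ended dim in each format, in 3D at 3.07 from 5.93. With PD-98059 and U0126 in 2D RGS22 rose by 4.78 ± 0.23 and 4.78 ± 0.25 (limma adjusted p = 2.13e-15 and 1.35e-14). Its 2D means, 8.10 in control cells, 4.03 with HGF and 8.80 and 8.81 with the inhibitors, were lowest with HGF, as were those of GPR18 and SCTR.

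**Figure D4:**
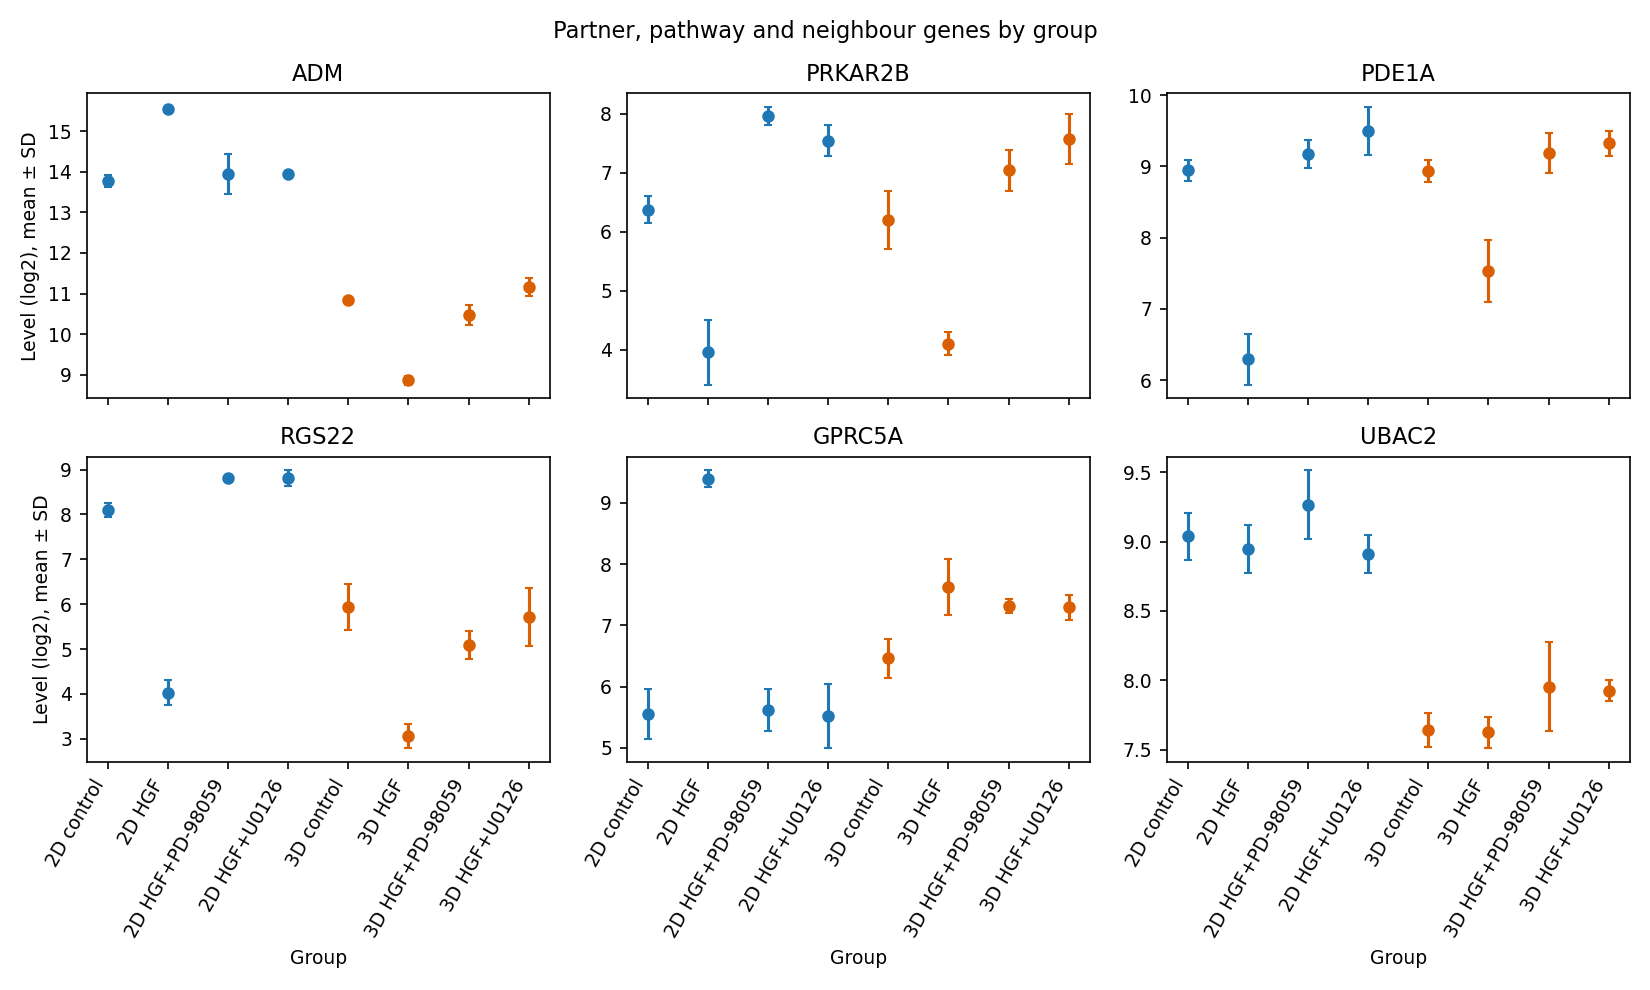
Group means of 6 genes named beside the receptors, on the log2 scale with the SD as error bar (n = 3 or 4), 2D in blue and 3D in orange, each panel with its own axis. ADM is higher with HGF in 2D and lower in 3D, PRKAR2B, PDE1A and RGS22 are lowest with HGF in both formats, GPRC5A is highest with HGF in 2D, and UBAC2 differs mainly between formats.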

How the data were processed

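The authors deposited 1 log2 level per probe set and array. Tools listed in the submitters' processing notes, with no role or order, are Partek 6.6, GCRMA, Affymetrix Expression Console 1.1 and MAS5. Per the labels total RNA was copied, transcribed in vitro and labelled with biotin. No value was transformed further here. Of 43035 probe sets 111 are controls, and 16571 of the other 42924 reached log2 5 in at least 3 of 29 arrays and were tested. Of these 42924, 29254 carry 1 gene symbol, 439 several and 13231 none. Arrays have no read depth, and their number limits the precision.

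limma 3.58.1 in R 4.3.3 was fitted to 8 group means over 29 arrays (eBayes with trend, two-sided, Benjamini-Hochberg over all tested probe sets, threshold 0.05). It was tested on simulated data. Members and lists were chosen with earlier results of these data known, so the members have no p-value. Listed genes keep theirs, adjusted over all tested probe sets. Since many were named for their large change, these p-values are descriptive too. Lists use 1 probe set per gene, that with the highest mean. Named by rule were the genes of each list that changed most with HGF, the 3 closest profiles of each member, fixed partners and, chosen later, adjacent genes. Alternatives were other filters, no trend, quantile normalization, median centring, array weights, the compared groups alone, the replicate number as a block and arrays left out. Same-numbered arrays of different groups had a mean correlation of deviations of 0.00 (94 pairs, 31 over 0.1), so the numbers were not taken to pair them. No sequence is shown.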

Additional observations from a re-analysis of the deposited data

Results flagged for a closer look

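ACKR3 was lower with HGF in 3D (-3.57) and higher in 2D (1.12), in every array of each group; the difference itself was not tested. GPR18 was lower with PD-98059 than with HGF alone in 3D and higher in 2D (4.92). The 3D difference, -0.092 ± 0.23 between dim levels, was smaller than its standard error. Against untreated cells GPR18 with HGF and PD-98059 was lower in 3D (-1.16, between dim levels) and higher in 2D (1.61). In each case the arrays did not overlap, and the contrast between formats was likewise not tested.

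The HGF effect in 3D minus that in 2D passed limma's interaction test for several genes named beside the receptors. It also passed as higher in 22% and as lower in 26.3% of all tested probe sets. Most of these genes were named for a large change with HGF, so nothing about partners of the receptors is read from the list. It was negative for ADM (-3.73, adjusted p = 3.81e-13), TMEM37 (-2.82, adjusted p = 1.23e-10) and GPRC5A (-2.68, adjusted p = 2.60e-07). It was also negative for ADGRF1 (-2.20, adjusted p = 6.66e-14), GRK2 (-1.27, adjusted p = 0.0136), GPRC5B (-1.02, adjusted p = 0.000278) and GNAI2 (-0.67, adjusted p = 0.00451). It was positive for PDE1A (1.26, adjusted p = 0.000344), RGS22 (1.20, adjusted p = 0.00326) and GDE1 (0.54, adjusted p = 0.000239) in the same limma fit. LPAR2 differed by -4.0004 in the same way, but it passed the filter only through its 2D HGF arrays and was dim in all others, so no test is given. For GRK2 the adjusted p was 0.0737 without 3D HGF replicates 1 and 4.

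In 9 of 105 sets of 4 arrays 1 array lay far from the other 3, where chance gives about 5%. ACKR3 in 2D HGF replicate 3 read 4.85 against 4.41 to 4.45, and GPR18 in 2D HGF replicate 4 read 2.47 against 2.35 to 2.37. PRKAR2B read 3.13 in 2D HGF replicate 1 (others 4.21 to 4.24) and 7.73 in replicate 3 with PD-98059 in 2D (others 8.002 to 8.05). CFAP221 read 6.49 in 2D control replicate 3 (others 6.46), 6.76 in 2D HGF replicate 1 (others 6.46 to 6.49) and 6.91 in replicate 4 with PD-98059 in 2D (others 6.45 to 6.48). COPS8 read 9.93 in replicate 2 with PD-98059 in 2D (others 10.22 to 10.26), and TMEM37 read 9.10 in 3D control replicate 2 (others 9.39 to 9.44).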

How the results depend on the processing

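All 732 recomputed differences of ACKR3, GPR18 and SCTR, over 15 comparisons and every alternative run, moved by less than 1 SD between replicate arrays. Many could not move further. The other filters, the fit without trend and the fit of the compared groups alone leave the group means as they are. Leaving 1 array out moves a mean by only part of the spread of its group. That SD was 0.27 for ACKR3, 0.31 for GPR18 and 0.30 for SCTR. With 1 array left out, the ACKR3 difference ranged from -3.70 to -3.46 for HGF in 3D, and the SCTR difference from -4.96 to -4.57 for HGF in 2D. The GPR18 difference of HGF with U0126 from control in 2D, near 0, ranged from -0.24 to 0.15 in this way, and that of U0126 from HGF in 3D was 0.0024 with each array centred on its median, against -0.05. With the replicate block the HGF difference of ACKR3 in 3D was -3.57, as it had to be between groups that hold every replicate number. No member moved by 1 SD under the block. Without a filter, which adds probe sets at background to those tested, the share that passed was smaller, of a larger number tested: 20.3% rose and 12.7% fell with HGF in 3D, 10.4% rose and 11% fell with HGF in 2D, and 9.66% and 9.77% were higher and lower in the HGF effect in 3D minus that in 2D. In that setting 15.5% were higher and 12.5% lower in untreated 3D than 2D cells, with PD-98059 9.17% rose and 5.87% fell in 3D and 10.4% and 9.85% in 2D, and with U0126 9.19% rose and 10.4% fell in 3D and 9.67% and 9.44% in 2D. Rises were then 61.5% of the calls with HGF in 3D, against 47.4%, and 55.4% between untreated formats, against 45.1%. With only the compared groups fitted, 17.3% rose and 9.03% fell with PD-98059 in 3D. Among listed genes tested without a filter, with HGF in 3D 27 other seven-pass receptors rose and 5 fell, 4 genes of the GPR18 list rose and 1 fell, 4 RGS genes rose and 1 fell, and 1 gene each rose in the cyclic AMP and ACKR3 lists. The array medians reached 3.26 in 3D HGF and 3.14 in 3D control cells, and their part in these counts was not tested. Of 330 recomputed list counts 31 moved by more than 1.5 times, and of 2466 recomputed differences of single genes 44 lost and 14 gained a call, none reversing one.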
